A study of Mus musculus with 186 samples.

Results

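The cells described here are 41 of 169 single inner cells of mouse embryos: 22 cells of embryos collected fresh at E3.75 and 19 collected fresh at E3.25, ages in days after mating. They were chosen by the stage in the sample labels, with no use of measured values. All embryos were of the CD-1 strain, came from natural matings and, in these groups, were neither cultured nor treated. Their outer cells had been lysed by immunosurgery, in which antibody and complement kill the exposed outer layer, so any outer cell that survived would be among those sequenced. A further 14 fresh cells of E4.0 are given beside some values. The remaining cells of the series were cultured from E2.75 with a PI3K inhibitor or its solvent, and enter only through the shared estimate of spread.

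Between these stages the inner cell mass of the mouse blastocyst separates into 2 cell types. Epiblast cells, which form the body of the embryo, keep NANOG and SOX2 and secrete the growth factor FGF4. Primitive endoderm cells, which form the yolk sac lining, keep GATA6 and then gain SOX17, GATA4 and later SOX7 in sequence, driven by FGF4 acting through FGF receptors and the kinase ERK. Inner cells of the early blastocyst carry NANOG and GATA6 together, and the pattern later becomes mutually exclusive. The outer layer, the trophectoderm, forms the placenta and is marked by CDX2 and keratins.

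Values are TPM, transcript abundances scaled to a fixed total per cell. A gene's level in an experiment is its log2(TPM + 1) averaged over the cells. Such a mean mixes the share of cells with the transcript and the amount in each, which it cannot tell apart. The replicate was the experiment, cells of 1 stage sharing a date label. E3.75 had 15 cells in experiment 1 and 7 in experiment 2, and E3.25 had 9 cells in experiment 1 and 10 in experiment 2. Each pooled several litters, and the label does not tie cells to embryos. The 2 sequencing runs each held cells of both stages. A difference is always E3.75 minus E3.25 in log2(TPM + 1) units, a scale on which changes of genes with low values come out too small. It is given with its standard error from limma, fitted over all 18 experiments of the series.

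Library quality, as far as TPM shows it, overlapped between the stages except for transcript length and the correlation between cells. Cells of the E3.75 experiments had on average 6371 and 6000 genes at a TPM of 1 or more, against 6393 and 6078 in the E3.25 experiments. Transcripts shorter than 500 bases took 28.4% and 19.8% of TPM in the E3.75 experiments, against 17.9% and 14.6% in the E3.25 experiments, without overlap. The mean correlation between cells of an experiment was 0.667 and 0.659 at E3.75 and 0.637 and 0.576 at E3.25, again without overlap. E3.25 experiment 2, at 0.576, stood apart from the other 3. One pair of E3.25 columns in experiment 2 had titles that differ only in a suffix, and was averaged as 1 cell for that reason. The pair correlated at 0.721, above the 0.648 that either reached with another cell of its experiment. A pair in E3.25 experiment 1 reached 0.745 and was kept as 2 cells. The averaged cell had 8622 genes at a TPM of 1 or more, the most of any E3.25 cell. A pair of cells in E3.75 experiment 1 correlated at 0.876, the highest value in these 4 experiments, and was kept as 2 cells. POU5F1 transcripts, a mark of inner cells at this age, reached a TPM of 10 in 22 of 22 E3.75 cells and 19 of 19 E3.25 cells. Cdx2 did so in 0 of 22 E3.75 cells (so that up to 13.6% of such cells could have been missed) and in 0 of 19 E3.25 cells (up to 15.8%). Transcripts of blood and follicle cells (Hba-a1, Hbb-bs, Ptprc, Amh and Foxl2) reached a TPM of 10 in no cell of either stage. The oocyte transcript Zp3 did so in 3 E3.75 cells and 6 E3.25 cells, and Gdf9, of oocytes, and Inha, of granulosa cells, in 1 E3.75 cell each and no E3.25 cell.

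No single gene passed the test between the stages, which lie 12 hours apart. Of 11680 genes tested, 0 (0.0%) had an adjusted p under 0.05 (limma, Benjamini-Hochberg over all tested genes), and the smallest adjusted p was 0.535. At an unadjusted p under 0.05, 173 genes (1.48%) were higher and 363 (3.11%) were lower at E3.75. Both E3.75 experiments lay above both E3.25 experiments for 1281 genes (11.0%) and below both for 2303 genes (19.7%). The median difference over all tested genes was −0.09, and 90% of genes lay between −1.30 and 1.13. With each experiment's trend on transcript length removed, which moved that median by 0.11, the share of higher genes among those with an unadjusted p under 0.05 was 51.4%, against 32.3% before. Quantile normalization gave 47.7%. Removing the trend centres each experiment, and quantile normalization gives all cells a common distribution. A more even split is therefore in part built into both steps and says nothing on its own about length. The adjusted count was 9 without E3.25 experiment 1, 4 without E3.75 experiment 1 and 0 without either of the other experiments. Of the 108 genes named for their level, 74 had a difference that moved by more than 1.5 times when 1 of the 4 experiments was left out, and of 25 gene lists 15 had a median that kept its sign each time. All values of single genes and lists below are therefore descriptions of 4 experiments, and no gene named for its level passed the adjusted test.

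Primitive endoderm genes did not all go 1 way. Without overlap, Gata4 and the basement membrane genes Lamb1 and Col4a1 were higher at E3.75, while Cited1 and Dab2 were lower. Of 23 tested markers, 15 were higher and 8 lower, with both E3.75 experiments above both E3.25 experiments for 7 (30.4%, against 11.0% of all genes) and below for 3 (13%, against 19.7%). Their median difference was 0.24, against −0.09 for all genes. It was −0.10 without E3.75 experiment 2, so that its sign turned on that experiment, and 0.13 to 0.77 without each of the others. Within sequencing run 1 it was 0.22, and within run 2 it was 0.36.

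Gata4, a zinc finger factor of committed primitive endoderm, averaged 1.68 and 3.60 in the E3.75 experiments, against 0.96 and 1.35 in the E3.25 experiments. Both E3.75 experiments were the higher, and the difference was 1.48 ± 0.65 (SE, unadjusted p = 0.034), or 0.52 without E3.75 experiment 2. A TPM of 10 was reached by 5 of 22 E3.75 cells (22.7%, exact 95% interval 7.82% to 45.4%) and 1 of 19 E3.25 cells (5.26%, 0.133% to 26.0%). In E4.0 embryos the level was 3.68 and 5.06, above all 4 of these experiments. Gata4 lies at chr14:63198922-63271692 (minus strand) and Nanog at chr6:122707489-122714633 (plus strand) in GRCm38, which is mm10, by the GENCODE M21 annotation. Sox17, an HMG-box factor that comes up just before Gata4, averaged 1.34 and 3.71 at E3.75 and 1.20 and 1.74 at E3.25, so that the stages overlapped, and without E3.75 experiment 2 its difference of 1.06 turned to −0.12. It reached a TPM of 10 in 6 E3.75 cells and 4 E3.25 cells. The laminin chain gene Lamb1 was 1.49 higher at E3.75 and the collagen gene Col4a1 0.66 higher, both with no overlap, as was Hnf4a (0.73), which encodes an endoderm nuclear receptor. Amn, which encodes the amnionless subunit of the cubilin endocytic receptor, was 1.05 higher, with 4 E3.75 cells and 0 E3.25 cells at a TPM of 10. These 4 genes were picked out after their values were seen.

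Gata6, the earliest endoderm factor, averaged 3.23 and 3.88 in the E3.75 experiments and 3.68 and 4.73 in the E3.25 experiments, a difference of −0.65 ± 0.68. Pdgfra, a receptor of primitive endoderm cells, averaged 1.82 and 1.31 at E3.75 and 0.85 and 2.56 at E3.25. For both genes the experiments of the stages overlapped. Cited1, a transcriptional coregulator, was lower at E3.75, with 6.61 and 4.80 against 8.09 and 7.78 at E3.25 (−2.23 ± 0.79, unadjusted p = 0.010), and lower again at E4.0, with 3.97 and 2.03. Dab2, an endocytic adaptor, averaged 0.42 and 0.02 in the E3.75 experiments and 2.60 and 1.63 in the E3.25 experiments (−1.89 ± 0.74). No E3.75 cell reached a TPM of 10 for Dab2, against 6 E3.25 cells, and its level at E4.0 was 4.07 and 2.32. Dab2 is therefore a marker whose lowest levels of the 3 fresh stages were at E3.75.

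**Figure D1:**
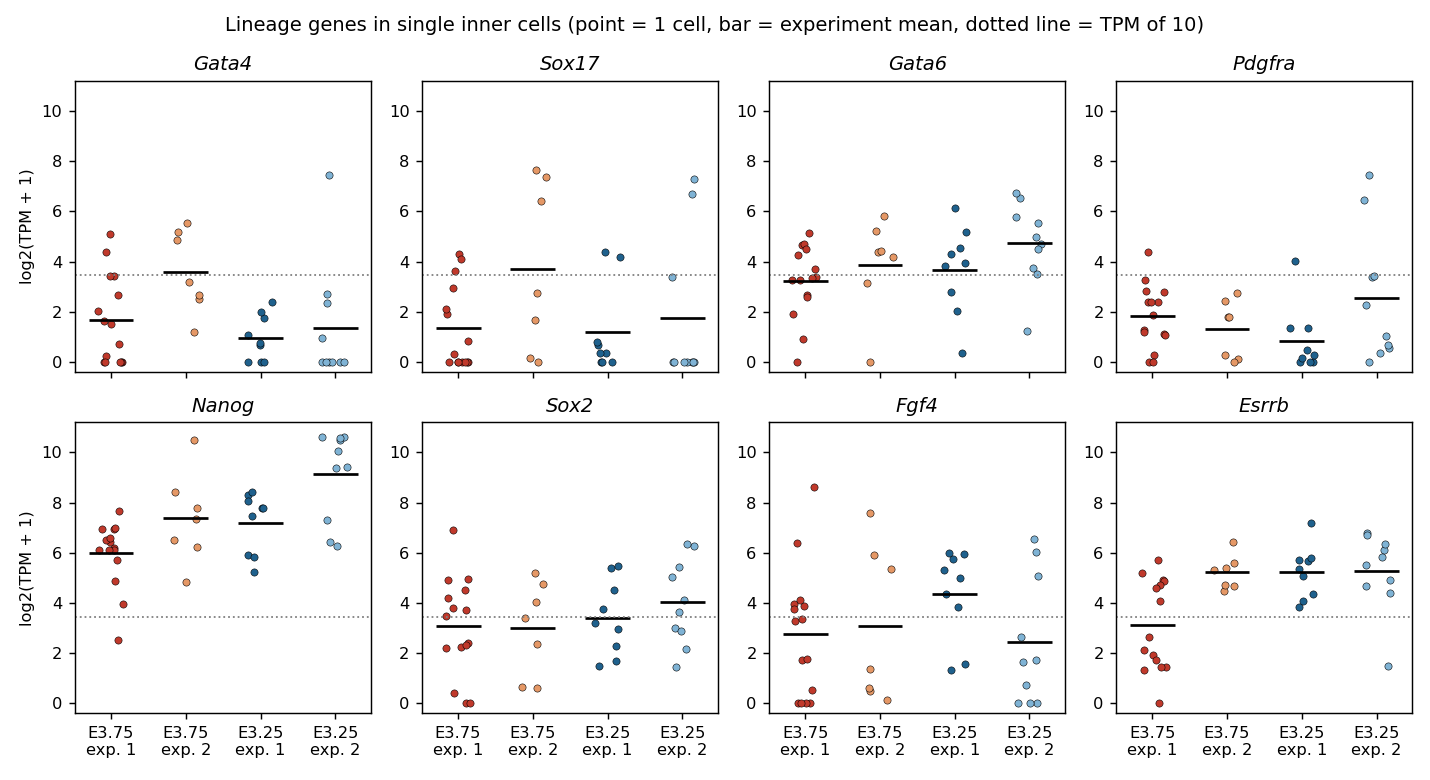
Levels of 8 lineage genes in each cell, as log2(TPM + 1), for the E3.75 experiments (left of each panel, red and orange) and the E3.25 experiments (right, blue). Points are cells, bars are experiment means and the dotted line is a TPM of 10. Gata4 means are 1.68 and 3.60 at E3.75 against 0.96 and 1.35 at E3.25, while 5 Nanog values near 10 belong to E3.25 experiment 2.

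Epiblast genes were split evenly. Of 20 tested markers, 10 were higher and 10 lower at E3.75. Without overlap 3 were higher (15%, against 11.0% of all genes) and 4 lower (20.0%, against 19.7%), shares near those of all genes. The median difference was −0.23, and 0.04 without E3.25 experiment 1, −0.08 without E3.75 experiment 1 and −0.49 without E3.75 experiment 2. Nanog, the homeobox factor of naive pluripotency, averaged 5.98 and 7.38 in the E3.75 experiments, against 7.21 and 9.13 in the E3.25 experiments (−1.49 ± 1.15). That difference was −0.53 without E3.25 experiment 2. A Nanog TPM of 1000 or more was seen in 1 E3.75 cell and in 5 E3.25 cells, all 5 of E3.25 experiment 2. That experiment also had the lowest mean level of ribosomal protein genes, 9.14, against 11.1 and 10.2 in the E3.75 experiments and 10.7 in E3.25 experiment 1, and its part in the Nanog values was not tested.

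Sox2, the partner factor of OCT4, averaged 3.07 and 3.01 at E3.75 and 3.42 and 4.04 at E3.25, without overlap (−0.69 ± 0.88). Fgf4, the ligand, averaged 2.76 and 3.07 in the E3.75 experiments and 4.35 and 2.44 in the E3.25 experiments, so that the stages overlapped. Klf5 and Tbx3, factors of the naive pluripotent network, were lower by 1.23 and 1.02 at E3.75 without overlap, with unadjusted p of 0.11 and 0.15. Esrrb, an orphan nuclear receptor, averaged 3.12 and 5.24 at E3.75 and 5.23 and 5.28 at E3.25, and only E3.75 experiment 1 was low. Sall4 (−1.60 ± 0.89) and Klf4 (0.53 ± 0.87) also overlapped. On the higher side without overlap were Zfp42 (0.79), a zinc finger marker of naive cells, Enox1 (0.51) and Prdm14 (0.45), picked out after their values were seen. Among 12 core pluripotency and chromatin genes, 4 were higher and 8 lower (median −0.26). Pou5f1 averaged 7.41 and 8.03 at E3.75 against 8.09 and 8.65 at E3.25, and Mybl2, a cell cycle transcription factor, was −0.58 ± 0.72.

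Trophectoderm genes were mostly lower at E3.75. Of 17 tested markers, 2 were higher and 15 lower, with both E3.75 experiments below both E3.25 experiments for 7 (41.2%, against 19.7% of all genes) and above for 1, and the median difference was −0.71. Without E3.25 experiment 2 it was −0.37, within run 1 −0.54 and within run 2 −0.62. The defining factor Cdx2 was at or near 0 in both stages, with experiment means of 0.00 and 0.00 at E3.75 against 0.00 and 0.29 at E3.25. Lower without overlap were Krt8, Ptges, Aqp3, Tfap2c, Atp1b1, Dsp and Eomes. Krt8, a keratin of simple epithelia, averaged 5.22 and 3.57 in the E3.75 experiments and 6.83 and 6.01 in the E3.25 experiments (−2.02 ± 0.95). Ptges, prostaglandin E synthase, averaged 1.04 and 1.38 at E3.75 and 4.44 and 2.95 at E3.25 (−2.48 ± 1.10). Aqp3, a water and glycerol channel, averaged 0.98 and 1.71 at E3.75 and 2.95 and 3.29 at E3.25 (−1.78 ± 0.57, unadjusted p = 0.0054). For all 3 the stages did not overlap, and a TPM of 10 was reached for Krt8 in 16 E3.75 cells and 18 E3.25 cells, for Ptges in 4 E3.75 cells and 11 E3.25 cells, and for Aqp3 in 1 E3.75 cell and 7 E3.25 cells. The mean level over the 17 markers was 1.87 and 1.62 in the E3.75 experiments, 2.39 and 2.61 in the E3.25 experiments. At E4.0 it was 1.98 and 2.13. Of the transcription factors, Tfap2c averaged 2.76 and 0.93 in the E3.75 experiments and 2.93 and 4.05 in the E3.25 experiments (−1.64, unadjusted p = 0.058), and Eomes 1.33 and 0.76 at E3.75 and 1.35 and 1.45 at E3.25. Tead4, the Hippo pathway partner that acts upstream of Cdx2, was the marker that was higher without overlap (0.80). Across 20 cell adhesion and polarity genes, 3 were higher and 17 lower (median −0.42, and −0.12 without E3.25 experiment 2), including Ctnnb1 (−1.43 ± 0.70), the beta-catenin gene, the tight junction gene Cldn7 (−1.39) and the polarity gene Pard6b (−0.95). The 14 Hippo pathway genes had a median of −0.42, and −0.05 without E3.25 experiment 2. Of these, Wwtr1 (−1.38), which encodes the coactivator TAZ, Nf2 (−1.20) and Yap1 (−1.12) were all lower without overlap.

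**Figure D2:**
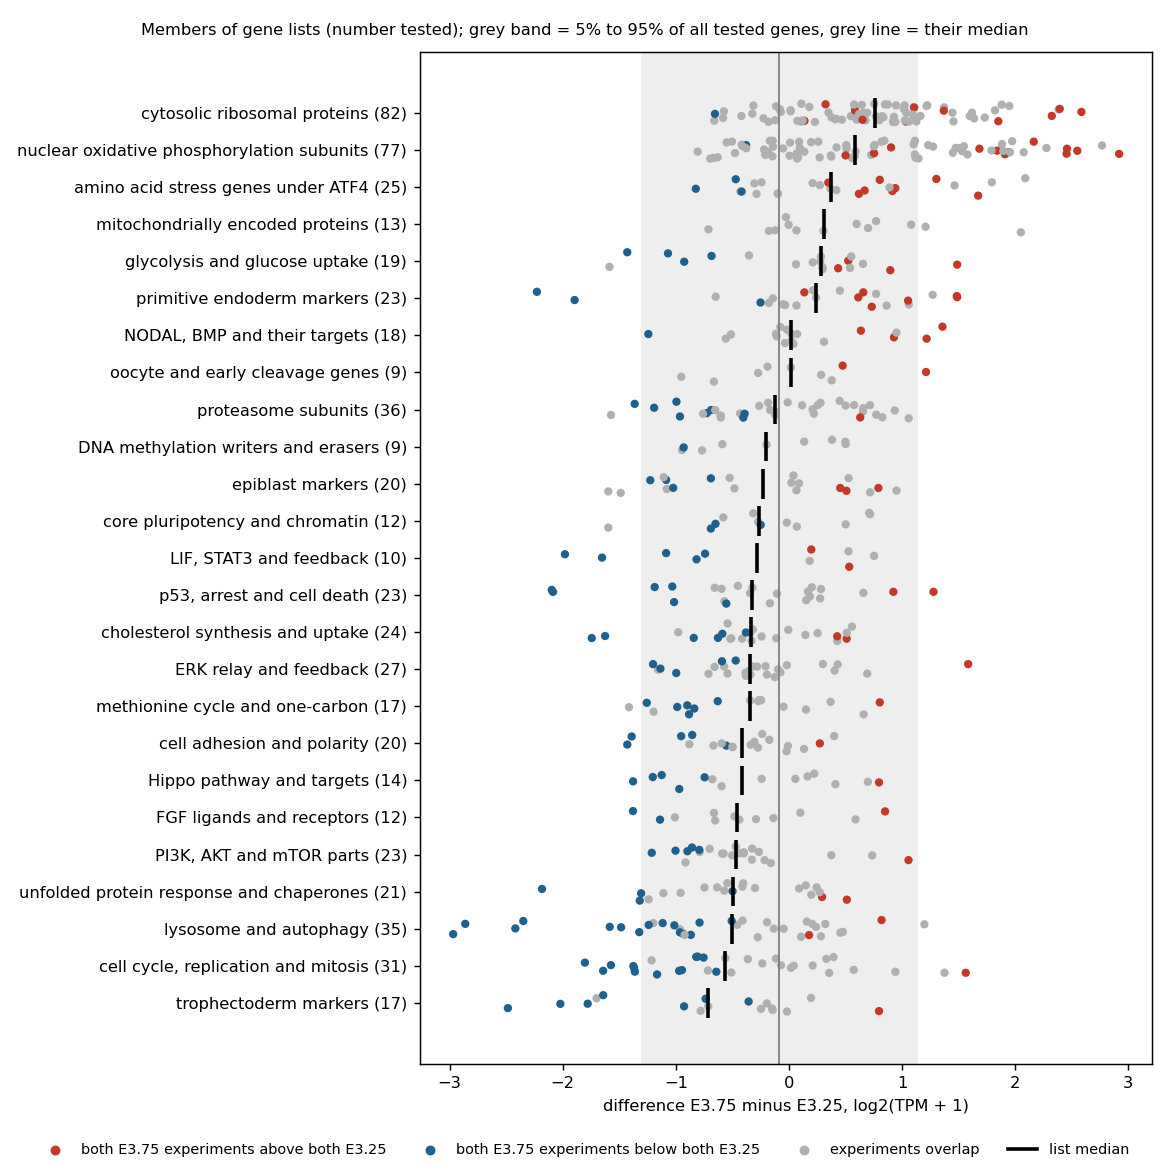
Difference E3.75 minus E3.25 in log2(TPM + 1) for each tested member of 25 gene lists, ordered by list median (black bar), with the number tested in brackets. Red and blue points are genes whose E3.75 experiments both lie above or both below the E3.25 experiments, grey points overlap. The grey band holds 90% of all tested genes (−1.30 to 1.13). Ribosomal protein genes have the highest list median (0.76) and trophectoderm markers the lowest (−0.71).

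Most genes of the FGF pathway were somewhat lower at E3.75, but few stood clear of the spread. FGF ligands, receptors and the enzymes of heparan sulfate, the sugar chain that FGF needs as a coreceptor, had 3 members higher and 9 lower of 12 tested (median −0.46). That median was −0.12 without E3.25 experiment 2 and 0.01 without E3.25 experiment 1, so its direction rested on E3.25 experiment 1. Fgfr1, the receptor of all inner cells at this age, averaged 4.04 and 5.23 at E3.75 and 4.70 and 5.91 at E3.25, and Fgfr2, a receptor of later primitive endoderm, 0.92 and 0.33 at E3.75 and 0.16 and 1.97 at E3.25. Ndst1 (−1.38 ± 0.66) and Hs2st1 (−1.14 ± 0.69), which sulfate heparan, were lower without overlap, with differences of −0.18 and −0.32 without E3.25 experiment 2, and Ext1 (0.85 ± 0.58), which extends the chain, was higher without overlap. The ERK relay and its feedback genes had 5 members higher and 22 lower of 27 (median −0.34, and 0.00 without E3.25 experiment 2). Without overlap 5 were lower (18.5%, near the 19.7% of all genes) and 1 higher (3.70%, against 11.0%). Etv5, an ETS factor whose transcription follows FGF signalling, stood on the other side, with 4.45 and 4.63 in the E3.75 experiments and 2.71 and 3.20 in the E3.25 experiments (1.58 ± 0.93, unadjusted p = 0.10) and a TPM of 10 in 18 E3.75 cells against 10 E3.25 cells. The feedback phosphatase gene Dusp4 averaged 0.54 and 3.2 at E3.75 and 2.2 and 2.35 at E3.25, and the feedback inhibitor gene Spry4 reached a TPM of 10 in 0 cells of either stage. Ier3 (−1.20), an immediate early gene, and Map2k2 (−1.0), which encodes the ERK kinase MEK2, were lower without overlap.

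In the NODAL and BMP list, 10 of 18 genes were higher and 8 lower (median 0.02), and the NODAL antagonists were among the highest. Lefty1 averaged 1.41 and 2.28 in the E3.75 experiments and 0.09 and 0.89 in the E3.25 experiments (1.36 ± 0.70), with 3.60 and 7.04 at E4.0. Lefty2 averaged 1.40 and 1.19 at E3.75 and 0.04 and 0.10 at E3.25 (1.22 ± 0.64), and 2.93 and 6.27 at E4.0. Both genes were higher in both experiments of each later stage, and a TPM of 10 was reached for Lefty1 in 6 E3.75 cells and 1 E3.25 cell, and for Lefty2 in 5 E3.75 cells and 0 E3.25 cells. Foxh1 (0.93), the cofactor through which NODAL signals act, was also higher without overlap (a gene picked out after its value was seen), while the shared effector gene Smad4 was lower (−1.24 ± 0.71). The LIF and STAT3 list had 5 genes higher and 5 lower of 10 (median −0.28). Without overlap 2 were higher (20%, against 11.0% of all genes) and 5 lower (50%, against 19.7%). The lower members included Stat3 (1.71 and 3.12 in the E3.75 experiments, 3.20 and 4.94 in the E3.25 experiments, −1.65 ± 0.79) and its feedback target Socs3 (0.41 and 2.76 at E3.75, 3.0 and 4.13 at E3.25, −1.98 ± 0.68). The difference was −0.78 for Stat3 without E3.25 experiment 2, and −0.81 for Socs3 without E3.75 experiment 1. A TPM of 10 was reached for Stat3 in 3 E3.75 cells and 13 E3.25 cells, and for Socs3 in 2 E3.75 cells and 10 E3.25 cells. Socs1, another feedback gene, was 0.53 higher.

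Genes of the ribosome and of the mitochondrial respiratory chain made up the highest lists, and their values turned on 1 experiment. Of 82 tested ribosomal protein genes, 69 were higher and 13 lower at E3.75, 11 and 1 of them without overlap (13.4% and 1.22%, against 11.0% and 19.7% of all genes), with a median of 0.76. The mean level over these genes was 11.1 and 10.2 in the E3.75 experiments and 10.7 and 9.14 in the E3.25 experiments, so E3.25 experiment 2 was the low one. Without it the median was −0.03. Within sequencing run 1 it was 0.40 and within run 2 it was 0.99. Rpl37a averaged 11.22 and 11.06 at E3.75 and 10.55 and 6.56 at E3.25 (2.58 ± 1.14), Rps21 was 2.39 ± 0.99 and Rpl35 2.32 ± 0.83. Without E3.25 experiment 2, these differences were 0.59, 0.87 and 0.49. Of 77 nuclear genes for oxidative phosphorylation subunits, 57 were higher and 20 lower. Clear of overlap were 12 higher genes (15.6%, against 11.0% of all genes) and 1 lower gene (1.299%, against 19.7%). The median of this list was 0.58, and −0.02 without E3.25 experiment 2. Uqcr11 (2.28 ± 0.86) and Cox6b1 (1.91 ± 0.77), of respiratory complexes III and IV, and Atp5j2 (2.46 ± 1.10), of ATP synthase, all had E3.25 experiment 2 as the lowest experiment. Many of these transcripts are short, with a median of 634 bases for the ribosomal list, 588 for the oxidative phosphorylation list and 1024 for all tested genes. Over all genes the median difference was 0.19 for transcripts under 500 bases and −0.19 for those of 3000 bases or more. With the length trend removed, the median of the ribosomal list was 0.83 and that of the oxidative phosphorylation list 0.55. The median over all genes was then 0.03 for transcripts under 500 bases and 0.02 for those of 3000 bases or more. That closeness is built in, since the step centres each experiment along transcript length. The 13 proteins encoded by mitochondrial DNA had 8 genes higher and 5 lower, none without overlap. All mitochondrially encoded genes together took 16.1% and 4.54% of TPM in the E3.75 experiments, against 3.04% and 10.9% in the E3.25 experiments. The members with the lowest p were mt-Nd6 (1.21 ± 0.83), mt-Nd5 (1.08 ± 0.87) and mt-Nd3 (2.05 ± 2.30), all subunits of complex I.

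**Figure D3:**
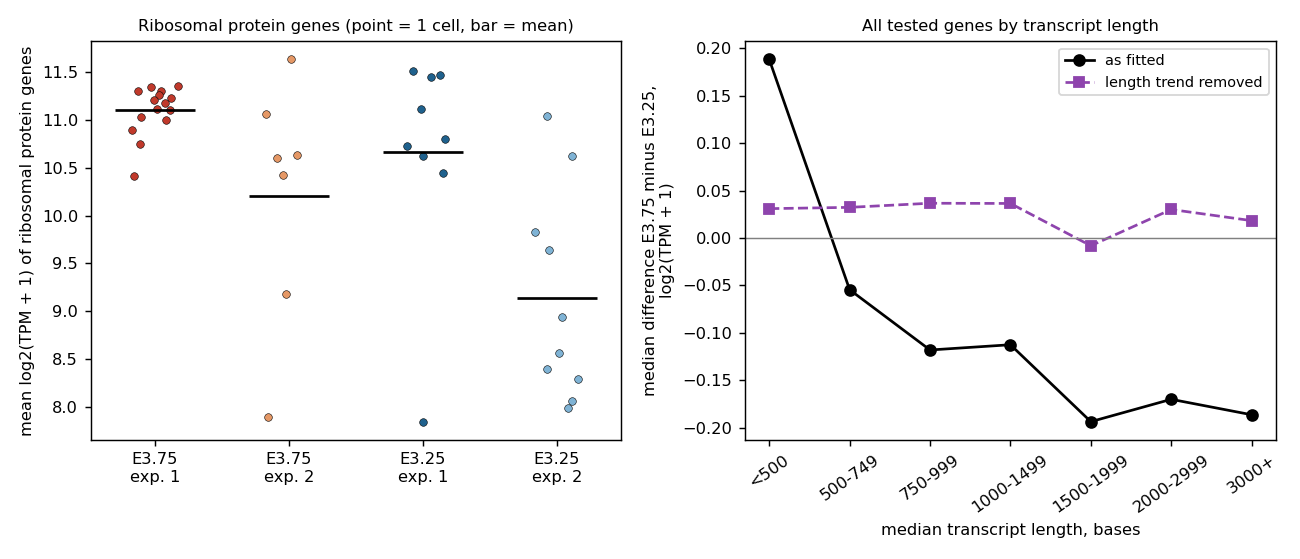
Left, mean log2(TPM + 1) of the ribosomal protein genes in each cell (point) and experiment (bar), E3.75 left of E3.25; experiment means are 11.1 and 10.2 at E3.75 and 10.7 and 9.14 at E3.25. Right, median difference E3.75 minus E3.25 of tested genes in classes of transcript length, as fitted (black) and with the length trend of each experiment removed (purple). Removing the trend centres each experiment along length, so a flat purple line is built in. The fitted median is 0.19 under 500 bases and −0.19 at 3000 bases or more.

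Lysosome and autophagy genes were mostly lower at E3.75. Of 35 tested, 11 were higher and 24 lower, with 15 below in both E3.75 experiments (42.9%, against 19.7% of all genes) and 2 above. The median was −0.51, and −0.31 without E3.25 experiment 2, with −0.35 within run 1 and −0.83 within run 2. Map1lc3a, an LC3 protein of the autophagosome membrane, averaged 3.73 and 3.92 in the E3.75 experiments and 6.54 and 7.04 in the E3.25 experiments (−2.97 ± 0.69, unadjusted p = 3.3e-04, adjusted p = 0.781). The gene lies at chr2:155276297-155278073 (plus strand). It reached a TPM of 10 in 12 of 22 E3.75 cells and in all 19 E3.25 cells. Gabarapl1, of the same protein family, averaged 1.90 and 0.61 at E3.75 and 4.00 and 3.20 at E3.25 (−2.35 ± 0.85). Atg9a, a membrane protein that feeds the growing autophagosome, averaged 0.93 and 1.54 at E3.75 and 2.72 and 5.46 at E3.25 (−2.86 ± 0.91), which was −1.49 without E3.25 experiment 2.

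Cell cycle genes also had many lower members clear of overlap. Of 31 tested, 10 were higher and 21 lower. Without overlap 13 were lower (41.9%, against 19.7% of all genes) and 1 higher (3.23%, against 11.0%). The median was −0.56, and −0.53 without E3.25 experiment 2, with −0.67 within run 1 and −0.50 within run 2, and the median for E4.0 minus E3.75 was 0.76. Ccne1, the cyclin of entry into DNA replication, averaged 0.53 and 1.51 in the E3.75 experiments and 3.02 and 2.63 in the E3.25 experiments (−1.80 ± 0.69), with 3.38 and 3.29 at E4.0. Cdc20, the activator of the anaphase-promoting complex, averaged 4.81 and 4.71 at E3.75, 5.90 and 6.91 at E3.25 (−1.64 ± 0.82) and 6.16 and 6.77 at E4.0. For both genes E3.75 was the lowest of the 3 fresh stages in every experiment. Gins1, part of the replicative helicase, was higher (6.03 and 5.65 at E3.75, 4.93 and 3.63 at E3.25, 1.56 ± 0.83).

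Metabolic lists were mixed. Glycolysis and glucose uptake genes were 13 higher and 6 lower of 19 (median 0.28, and 0.09 without E3.75 experiment 2). Without overlap 4 were higher and 4 lower (21.1% each, against 11.0% and 19.7% of all genes). Pdk1, the kinase that holds pyruvate out of the mitochondrial cycle, averaged 0.32 and 1.79 at E3.75 and 0.05 and 0.27 at E3.25 (0.90 ± 0.42, and 0.16 without E3.75 experiment 2), and 2.01 and 3.11 at E4.0. Pgam1, a glycolytic mutase, went the other way, with 6.90 and 7.12 in the E3.75 experiments and 7.98 and 8.90 in the E3.25 experiments (−1.43 ± 0.65), and Ldhb, a lactate dehydrogenase, was −0.68. Cholesterol synthesis and uptake genes were 7 higher and 17 lower of 24 (median −0.34, and −0.18 without E3.25 experiment 2). Cyp51 (0.28 and 0.38 in the E3.75 experiments, 1.33 and 2.58 in the E3.25 experiments, −1.63 ± 0.58) and Lss (−1.74 ± 0.92) encode enzymes of the sterol branch, Stard4 (−0.59) a sterol carrier, and all 3 were lower without overlap. The methionine and one-carbon list was 4 higher and 13 lower of 17 (median −0.34, and −0.12 without E3.25 experiment 2), with Gldc, the glycine cleavage enzyme, at −1.26 (−0.28 without E3.25 experiment 2) and Mtrr, which keeps methionine synthase active, at −0.99 (−0.50 without E3.75 experiment 1). The DNA methylation list was 4 higher and 5 lower of 9 (median −0.20), and the members with the lowest p were Dnmt3b (−0.94), Tet2 (−0.77) and Uhrf1 (−0.93).

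Stress lists did not share a direction. Amino acid stress genes under the factor ATF4 were 16 higher and 9 lower of 25 (median 0.37, with 0.91 within run 1 and 0.08 within run 2, and 0.23 to 0.60 with 1 experiment left out). Without overlap 8 were higher (32%, against 11.0% of all genes) and 3 lower (12%, against 19.7%). Sars, the seryl-tRNA synthetase gene, averaged 5.75 and 5.85 in the E3.75 experiments and 4.18 and 4.81 in the E3.25 experiments (1.3 ± 0.74) and reached a TPM of 10 in all 22 E3.75 cells, against 13 of 19 E3.25 cells. Psph, of serine synthesis, was 1.79 ± 1.01, and Nupr1, a stress-induced chromatin protein, was at 4.54 and 0.00 at E3.75 and 0.00 and 0.36 at E3.25, present in E3.75 experiment 1 and near 0 in the other 3. Unfolded protein response genes and chaperones were 7 higher and 14 lower of 21 (median −0.50, and −0.13 without E3.25 experiment 2). Hspa5, the endoplasmic reticulum chaperone BiP, averaged 5.27 and 2.93 at E3.75 and 6.07 and 6.50 at E3.25 (−2.18 ± 0.88), and 7.23 and 7.76 at E4.0. Sdf2l1 (−1.32), of the same compartment, and the cytosolic chaperone gene Hsp90ab1 (−1.24) were lower too, Sdf2l1 without overlap. The p53, arrest and cell death list was 9 higher and 14 lower of 23 (median −0.32). The death-promoting BCL2 family gene Bad averaged 4.72 and 4.99 in the E3.75 experiments and 6.42 and 7.48 in the E3.25 experiments (−2.10 ± 0.77), and the p53 target Perp averaged 2.64 and 2.02 at E3.75 and 5.02 and 3.81 at E3.25 (−2.09 ± 0.85). Parts of the PI3K, AKT and mTOR pathway were 3 higher and 20 lower of 23 (median −0.47, and −0.32 without E3.25 experiment 2). The lower ones included Akt2 (−1.21), with the mTOR inhibitor gene Tsc1 (1.06) on the other side. Without overlap 5 were lower (21.7%, near the 19.7% of all genes) and 1 higher (4.35%, against 11.0%). Proteasome subunits were 16 higher and 20 lower of 36 (median −0.12, and 0.41 without E3.75 experiment 2), with 8 of the lower clear of overlap (22.2%, near the 19.7% of all genes). The members with the lowest p were Psmd8 (−1.19), Psmd6 (−1.36) and Psmd3 (−0.96). Of 31 oocyte and early cleavage genes 9 could be tested, 5 higher and 4 lower (median 0.02). Khdc3 (−0.95 ± 0.73), Ooep (1.21 ± 0.96) and Zp3 (−0.66 ± 0.56) had the lowest p. Over all 25 lists, the median had the same sign in both sequencing runs for 19. It did not for the epiblast, NODAL and BMP, LIF and STAT3, oocyte, mitochondrially encoded and proteasome lists.

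The genes with the largest differences, chosen by size among those with an unadjusted p under 0.05 and no overlap, included few lineage genes. Cops9, a COP9 signalosome subunit, averaged 7.70 and 8.5 in the E3.75 experiments and 6.65 and 3.37 in the E3.25 experiments (3.09 ± 1.29), and Tmem126a, of complex I assembly, 5.04 and 5.42 at E3.75 and 4.00 and 0.59 at E3.25 (2.94 ± 1.24). Uqcr10 (2.92), Atpif1 (2.88) and Dnajc19 (2.77), all mitochondrial, were also higher. Without E3.25 experiment 2 the differences of these 5 genes were between 0.73 and 1.45. Park7, a protein of the oxidative stress response, averaged 7.52 and 8.27 at E3.75 and 5.82 and 4.81 at E3.25 (2.58 ± 0.67), and 2.07 without E3.25 experiment 2. The prefoldin subunit gene Vbp1 was 2.65 ± 0.98, and 2.93 without that experiment, and the glutathione transferase gene Gsta4 was 2.63 ± 0.92 and 1.75 without it. AB124611 was 3.64 ± 1.61, with 19 E3.75 cells and 6 E3.25 cells at a TPM of 10, and 1.69 without E3.75 experiment 1. Crygc, a lens crystallin gene, averaged 1.25 and 4.57 at E3.75 and 0.36 and 0.00 at E3.25 (2.73 ± 0.61, unadjusted p = 2.3e-04), or 1.06 without E3.75 experiment 2, and 7 E3.75 cells and 0 E3.25 cells reached a TPM of 10. Rps3a3 averaged 8.13 and 7.20 at E3.75 and 3.30 and 4.53 at E3.25, but is uncertain, because it is a processed pseudogene that can share reads with its parent gene. The mitochondrial transfer RNA gene mt-Tn had the largest difference of all (4.91 ± 1.10), at 8.28 and 9.27 in the E3.75 experiments and 2.73 and 4.99 in the E3.25 experiments. It reached a TPM of 10 in 19 E3.75 cells and 8 E3.25 cells. Its value is uncertain too, because it is 71 bases long and short transcripts took more of TPM in both E3.75 experiments.

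The genes on the lower side differed in transcript length. Median lengths were over 2000 bases for Alppl2, Ppfia1, Gpr137b and Rflnb. For Uchl1, Bok, Tmc6, Sapcd2, Ak7 and Stmn3 they were between 735.5 and 1136 bases. Uchl1, a ubiquitin hydrolase, averaged 2.83 and 2.43 in the E3.75 experiments and 6.56 and 5.31 in the E3.25 experiments (−3.31 ± 1.10). Bok, a BCL2 family gene, averaged 2.98 and 2.39 at E3.75 and 5.67 and 6.29 at E3.25 (−3.29 ± 1.07). Alppl2, a germ cell and early embryo alkaline phosphatase, averaged 5.41 and 4.65 at E3.75 and 8.05 and 8.16 at E3.25 (−3.08 ± 1.02), and 2.48 and 1.90 at E4.0. For these 3 genes the stages lay more than 2 units apart in every pair of experiments. Tmc6, a transmembrane channel-like gene, was −3.25 ± 0.99, with 4 E3.75 cells and 15 E3.25 cells at a TPM of 10. Ppfia1, a liprin scaffold, was at that level in 1 E3.75 cell and 14 E3.25 cells (−3.15 ± 0.82), and Gpr137b, a lysosomal membrane protein, in 2 E3.75 cells and 13 E3.25 cells (−3.08 ± 1.07). Rflnb, a filamin regulator, averaged 2.61 and 0.78 at E3.75, 4.82 and 4.47 at E3.25 and 1.48 and 0.02 at E4.0. Sapcd2, of spindle orientation, was −2.98 ± 1.15, and the tubulin-binding Stmn3 was −2.93 ± 1.06, or −4.44 without E3.25 experiment 2. The adenylate kinase gene Ak7 was −3.19 ± 0.99, or −1.64 without that experiment.

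By the SD, though not by the median absolute deviation, cells of 1 experiment differed less from each other at E3.75 than at E3.25. The spread of a gene is here the SD of its log2(TPM + 1) over the cells of an experiment. Its median over all tested genes was 1.49 and 1.43 in the E3.75 experiments and 1.59 and 1.80 in the E3.25 experiments. The spread was narrower at E3.75 for 7616 genes and wider for 4046, with a median difference of −0.20, or −0.11 without E3.25 experiment 2. It was 0.00 for the median absolute deviation in place of the SD, and 0.01 with each experiment's trend of SD on level removed, a step that itself centres each experiment. An adjusted p under 0.05 was reached by 3 genes (0.0257%; limma, Benjamini-Hochberg), all narrower at E3.75, and an unadjusted p under 0.05 by 250 wider genes (2.14%) and 750 narrower genes (6.42%). The spread depends on level, so 2749 genes with a mean between 2 and 8 in all 4 experiments were taken apart. Of these 2034 (74%) were narrower at E3.75, beside 7616 of all 11680 tested genes. Their median SD was 1.82 and 1.96 at E3.75 and 2.06 and 2.33 at E3.25. How much of the spread is technical was not tested.

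**Figure D4:**
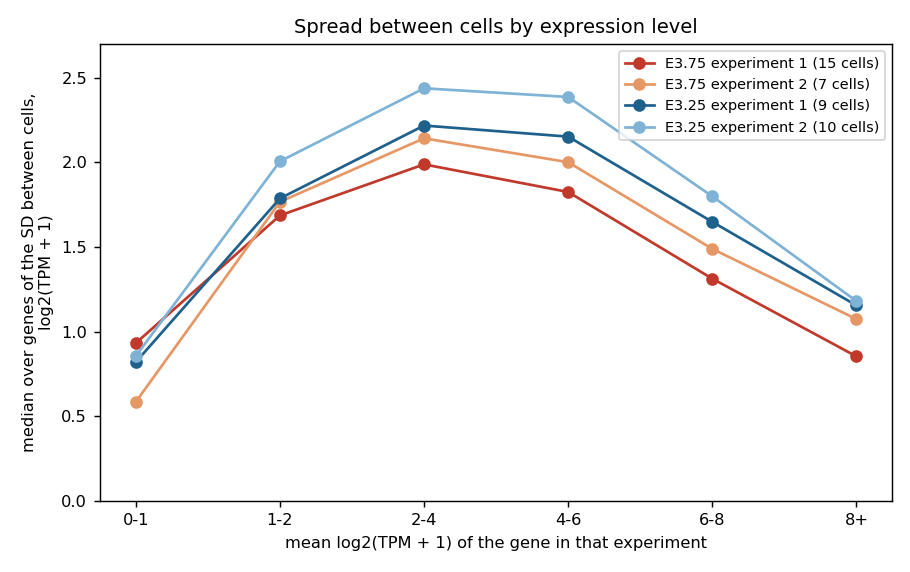
Median over genes of the SD between the cells of an experiment, in log2(TPM + 1), for genes grouped by their mean level in that experiment. From a level of 2 upward both E3.75 experiments (red and orange) lie below both E3.25 experiments (blue), for example at 1.99 and 2.14 against 2.22 and 2.44 for levels of 2 to 4.

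The 3 genes that passed were at or near 0 in the E3.75 cells and present in a few E3.25 cells. Aldh3b2, an aldehyde dehydrogenase gene, differed in SD by −2.05 (adjusted p = 0.0025), the long noncoding RNA gene Gm15892 by −2.36 (adjusted p = 0.035) and the uncharacterised Gm49957 by −2.20 (adjusted p = 0.035). For Gm15892 the experiment means were 0.00 and 0.00 at E3.75 and 0.83 and 1.68 at E3.25, with 3 E3.25 cells at a TPM of 10. All 3 calls were lost without E3.25 experiment 2, where 1 other gene passed. The same on-or-off pattern held for the other largest narrowings, Cstdc5, Tmem52, Cela2a, Mael, Wdr27 and Ankrd37, which reached a TPM of 10 in 0 E3.75 cells and in 3 to 5 E3.25 cells. The largest widenings mirrored it. Crygc, Snord47, Tceal9, Thy1, Tspo and Amn reached a TPM of 10 in 3 to 7 E3.75 cells and in 0 or 1 E3.25 cells. Among genes with a mean of at least 3 in both stages, the most variable at E3.75 were Rps12l1, Bet1, Rpl39, Hist1h2ap, Atp5mpl, Mrps6, Snhg12 and Sycn, with pooled SDs from 4.01 to 3.14. At E3.25 they were Hist1h2ap, Atp5mpl, Cox7b, Cox7a2, Mif, Mrps18c, Slirp and Uqcrb, with pooled SDs from 3.99 to 3.65. Hist1h2ap, a replication-dependent histone gene, and Atp5mpl, of ATP synthase, were in both groups, and 6 of the 8 at E3.25 encode mitochondrial proteins.

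The lineage genes had no common direction of spread. The pooled SD of Nanog was 1.48 at E3.75 and 1.53 at E3.25, and that of Gata6 1.60 at E3.75 and 1.68 at E3.25. For Fgf4 it was 2.73 at E3.75 and 2.23 at E3.25, and for Sox2 1.94 at E3.75 and 1.60 at E3.25. Lefty2 had an SD of 2.11 at E3.75 and 0.23 at E3.25, and Lefty1 of 2.32 at E3.75 and 1.70 at E3.25. Dab2, with 0.53 at E3.75 and 2.09 at E3.25, and Pdgfra, with 1.23 at E3.75 and 2.11 at E3.25, had the largest narrowing of those given here.

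Gata6 was present in fewer of the E3.75 cells, though not by a margin that 4 experiments can separate. Nanog reached a TPM of 10 in 21 of 22 E3.75 cells and 19 of 19 E3.25 cells. The share of cells with both genes was therefore the share with Gata6, and does not measure mutual exclusion. At a TPM of 10, both genes were present in 11 of 22 E3.75 cells (50%, exact 95% interval 28.2% to 71.8%) and 15 of 19 E3.25 cells (78.9%, 54.4% to 93.9%). Nanog without Gata6 was seen in 10 E3.75 cells (45.5%) and 4 E3.25 cells (21.1%). No cell of either stage had Gata6 without Nanog, but only 1 cell, of E3.75, lacked Nanog at all. The share with both was 40% and 71.4% in the E3.75 experiments and 66.7% and 90% in the E3.25 experiments, so the stages overlapped (two-sided exact permutation p = 0.67, smallest possible 0.33). The count depended on the threshold, since at a TPM of 5 Nanog without Gata6 was seen in 4 E3.75 cells and 3 E3.25 cells. Sox2 without Gata6 was seen in 5 E3.75 cells and 0 E3.25 cells (up to 15.8% could have been missed), but at a TPM of 5 in 2 E3.75 cells and 1 E3.25 cell. Fgf4 and Fgfr2 were not found together at a TPM of 10, with Fgf4 in 9 E3.75 cells and 10 E3.25 cells and Fgfr2 in only 1 E3.75 cell and 2 E3.25 cells, but at a TPM of 5 they met in 2 E3.75 cells and 1 E3.25 cell. The intervals cover counting of cells only, since cells of an experiment share litters and preparation.

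**Figure D5:**
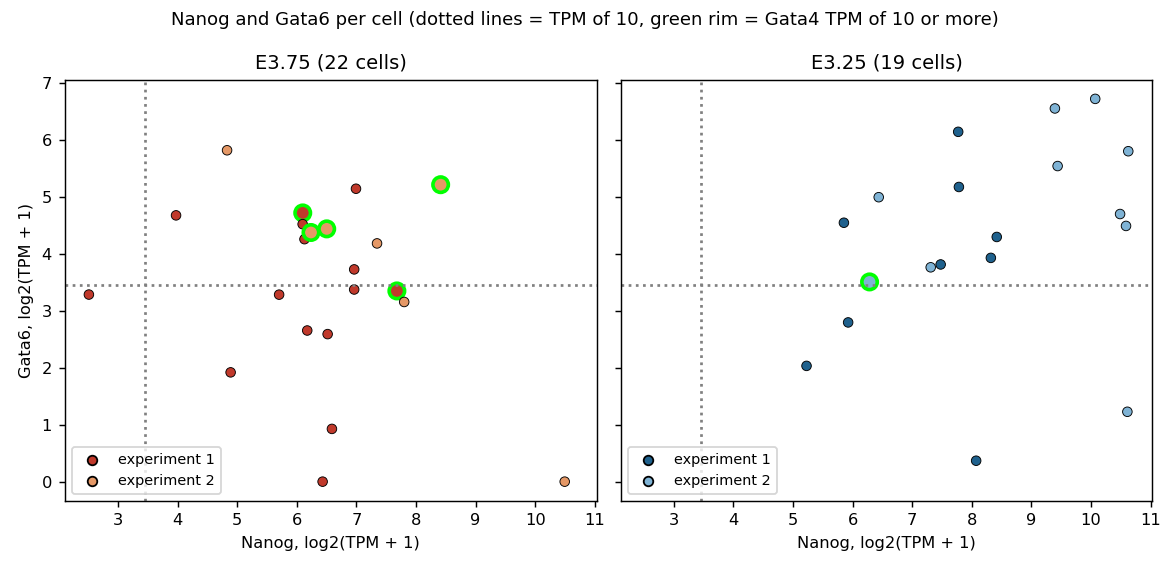
Gata6 against Nanog in each cell, both as log2(TPM + 1), for 22 E3.75 cells (left) and 19 E3.25 cells (right), coloured by experiment. Dotted lines mark a TPM of 10 and green rims a Gata4 TPM of 10 or more. Both genes pass the line in 11 E3.75 cells and 15 E3.25 cells, and 4 of the 5 E3.75 cells with Gata4 are among them.

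Correlations across cells, taken after subtracting each experiment's mean, are descriptions, as the cells share libraries, litters and runs. Nanog and Gata6 correlated at −0.40 over 22 E3.75 cells and 0.16 over 19 E3.25 cells. Nanog and Fgf4 correlated at 0.41 at E3.75 and −0.24 at E3.25, and Nanog and Sox2 at 0.38 at E3.75 and 0.00 at E3.25. Sox2 and Gata6 correlated at −0.05 at E3.75 and 0.56 at E3.25. With 22 and 19 cells these values are loose, and none is given as a finding.

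The difference between whole marker lists was higher at E3.75, while each list alone overlapped between the stages. The mean over primitive endoderm markers minus that over epiblast markers was −1.81 and −1.67 in the E3.75 experiments and −2.27 and −2.31 in the E3.25 experiments, without overlap (two-sided exact permutation p = 0.33, the smallest possible), and −0.51 and −1.25 at E4.0. The endoderm mean itself was 1.73 and 2.45 in the E3.75 experiments and 1.75 and 1.95 in the E3.25 experiments, and the epiblast mean 3.54 and 4.13 at E3.75 and 4.02 and 4.26 at E3.25, so that both overlapped and E3.75 experiment 1 was the lowest in both. The SD of the score between cells was 0.71 and 1.16 in the E3.75 experiments and 0.54 and 0.83 in the E3.25 experiments, not narrower at E3.75. The cells of E3.75 experiment 2 included the one lowest of all, at −4.20, which had Sox17 at a TPM of 163 and Nanog at 1443 with no Gata6.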

How the data were processed

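RNA of single cells was reverse-transcribed from the 3′ end, amplified, tagmented with Nextera XT and sequenced in pairs on a NextSeq 550, per the labels' protocols. The authors deposited TPM values for 170 cells. RSEM 1.3.3, STAR 2.7.9a, cutadapt 2.9, bcl2fastq 2.20.0 and the build mm10 are named in the submitters' processing notes, without their order. Settings and annotation are not given in the sources used here. Depth cannot be read from TPM and is unknown, so precision comes from the experiments. TPM divides by transcript length although the libraries start at the 3′ end, so levels were compared for 1 gene at a time. The labels list 186 samples, and the 16 without a column were not analysed here. Of 55513 lines, 92 were spike-ins and were left out.

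Experiments are cells of a group sharing a date label, 2 per stage. The E3.25 dates lie before and after both E3.75 dates. A gene was tested if 25% or more of a group's cells had it at a TPM of 1 or more. Experiment means of log2(TPM + 1) of all 18 experiments in 7 groups were fitted in limma 3.58.1 (R 4.3.3; eBayes with trend, 11 residual degrees of freedom, Benjamini-Hochberg, threshold 0.05). A second fit took each experiment's SD over cells, weighted by cells minus 1. These fits were tested on simulated data. For single values the 4 experiments were permuted (exact, two-sided), with 0.33 as the smallest possible p. Intervals on shares are exact Clopper-Pearson and cover counting only, and a count of 0 was given the share of 3 cells as its limit. With nothing in the labels on embryos or litters of single cells, p-values rest on the spread between experiments. In limma that spread is pooled over all 18 experiments, so it can be narrower than the spread of the 4 described here. For Crygc the SE was 0.61, while the 2 E3.75 experiment means had an SD of 2.35. Transcript lengths came from GENCODE M21 and matched 11518 of 11680 tested genes.

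The members and the 25 gene lists (673 symbols, 603 tested) were chosen with earlier results of these data known. Genes were named by rule: the 12 largest differences in each direction among genes with unadjusted p under 0.05 and no overlap, leaving out symbols with a Gm number, Rik, LOC, -ps or mt- names; the 5 smallest p; a panel of 15 lineage genes; up to 3 members per list with the smallest p, of which some are not reported here; the 6 largest widenings and narrowings of spread; and the 8 most variable genes of each stage. Alternatives changed the samples in the fit, pseudocount, summary, filter, scaling, covariate, sequencing run, weights and repeat columns, and left out each experiment. Those on transcript length and on look-alike cells were chosen after seeing the data.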

Additional observations from a re-analysis of the deposited data

Results flagged for a closer look

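Among 27 comparisons of a measure over the cells of an experiment, 3 had a cell far from the others by Dixon's ratio at its 95% value, and chance alone gives about 1 in 20. E3.75 experiment 1, with 15 cells, was too large for the ratio as used and was not checked. In E3.75 experiment 2, the lowest cell had a primitive endoderm minus epiblast score of −4.20, against −1.58 in the nearest of the other 6. In E3.25 experiment 1, the highest cell had a mean trophectoderm marker level of 3.92, against 2.81 in the nearest cell. In the same experiment the lowest cell had a mean ribosomal protein gene level of 7.84, against 10.4 in the nearest.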

How the results depend on the processing

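No paired analysis was possible because the E3.75 and E3.25 experiments were collected on different dates. The limits are few replicates, unknown depth and dependence on single experiments. Of the 108 genes named for their level, 16 changed sign under at least 1 alternative, in 33 of 2140 values. Less than the spread was the move of 481 of 497 alternative list medians and 73 of 81 alternative shares. That spread is the square root of the summed variances between the 2 experiments of each stage, a wide limit. By it the ribosomal median counted as unmoved at −0.03 without E3.25 experiment 2, against 0.76. These counts therefore do not show that the values are stable. The causes below were not tested unless stated.

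The count of genes with an adjusted p under 0.05 (limma, 0 as reported) was 1 on log2(mean TPM + 1), 90 with no filter on low values, and 0 to 9 when 1 experiment was left out. It was 0 under the other alternatives. At an unadjusted p under 0.05 there were 536 genes, against 913 on log2(mean TPM + 1), 3980 with no filter, where more genes were tested, 346 in run 1 cells, which are fewer, 1030 with experiments weighted by cells, and 339 to 863 with 1 experiment left out.

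The cell cycle median (−0.56) was −0.73 with a pseudocount of 0.1, −0.34 with 10, −0.81 on log2(mean TPM + 1), −0.40 after quantile normalization, −0.50 with TPM rescaled without mitochondrial genes, −0.67 in run 1, −0.50 in run 2, −0.46 with the length trend removed and −0.77 to −0.53 with 1 experiment left out. The trophectoderm median (−0.71) was −0.34 with a pseudocount of 10, −1.16 on log2(mean TPM + 1) and −0.64 to −0.37 with 1 experiment left out. Cholesterol genes (−0.34) were at −0.77 on log2(mean TPM + 1) and −0.043 in run 2, and NODAL and BMP genes (0.02) at −0.16 to 0.47 with 1 experiment left out. The stage difference in the lineage score was 0.32 with a pseudocount of 10 and 0.84 in run 1.

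Signs turned as follows. With a pseudocount of 0.1, Pdgfra was 0.16 and Spry4 0.12, and with 10, Dusp4 was 0.018. On log2(mean TPM + 1), Fgf4 was 0.63 and Dusp4 0.032. After quantile normalization Spry4 was 0.12. In run 1, Pdgfra was 0.083, Dusp4 0.75, Mybl2 0.41, Ooep −0.51, Pard6b 0.33 and mt-Nd3 −0.78. In run 2, Fgf4 was 0.22, Spry4 0.23 and Zp3 0.97. With the length trend removed, Pdgfra was 0.027, Cdx2 0.057 and Spry4 0.19. With 1 experiment left out, the ranges were −1.44 to 0.47 for Fgf4, −0.26 to 2.67 for mt-Nd6, −1.0 to 0.71 for Pdgfra, −1.34 to 0.46 for Fgfr2, −0.096 to 0.059 for Spry4, −2.01 to 0.12 for Dnmt3b, −1.74 to 0.98 for Dusp4, −1.25 to 0.086 for Mybl2, −1.53 to 0.21 for Zp3, −0.18 to 4.36 for Nupr1, −2.08 to 6.18 for mt-Nd3, −0.12 to 2.24 for Sox17 and −0.053 to 1.11 for Klf4.

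The count of genes whose spread passed the adjusted test (limma, 3) was 0 in the 4 experiments alone, 0 with the trend on the mean removed, 0 without weights, 18 with a pseudocount of 10, 1 with a filter at 50% of cells, and 1 to 10 with 1 experiment left out. At an unadjusted p under 0.05 the narrower genes numbered 353 to 1148 and the wider ones 39 to 382. By median absolute deviation the spread difference was −0.42 for Tspo and −0.054 for Amn.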

Other observations

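The 2 experiments of E3.75 differed from each other in genes that the comparison of stages does not show. Of 11680 tested genes, 295 (2.53%) differed by more than 3 log2 units between the E3.75 experiments, against 236 (2.02%) between the E3.25 experiments and 164 (1.40%) between the E4.0 experiments. Goosecoid (Gsc), a homeobox factor, averaged 0.98 and 6.92 in the E3.75 experiments, against 4.20 and 4.15 in the E3.25 experiments. Bmp4, a growth factor of the inner cells, averaged 1.52 and 6.57 at E3.75 and 3.60 and 2.59 at E3.25. Id3, a transcriptional target of BMP signals, averaged 4.08 and 8.58 at E3.75 and 7.62 and 6.06 at E3.25. In all 3 genes E3.75 experiment 1 was the lowest and E3.75 experiment 2 the highest of the 4. The reverse order held for Rpl7 (11.39 and 5.25 at E3.75, 8.66 and 8.34 at E3.25), a ribosomal protein gene, and for Gas5 (8.05 and 2.05 at E3.75, 6.56 and 6.42 at E3.25), a noncoding host of small nucleolar RNAs. These genes were picked out after their values were seen.

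Several pairs of cells were more alike than the rest. Besides the E3.75 pair at 0.876, a pair within E4.0 experiment 2 correlated at 0.975, and 1 cell of E4.0 experiment 1 correlated at 0.955 with a cell of an embryo cultured for 16 hours in DMSO. Across experiments, a pair of cells cultured for 24 hours with the PI3K inhibitor correlated at 0.973 and a pair cultured for 24 hours in DMSO at 0.959. All these cells enter the shared estimate of spread, and with them averaged or left out the count of genes with an adjusted p under 0.05 (limma) was again 0, with 465 at an unadjusted p under 0.05. Whether they are repeats of a cell or mixed-up labels was not tested.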
